A study of Mus musculus with 2 samples.

Results

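The genes described here encode membrane carriers of organic ions and neurotransmitters. They were taken as all protein-coding genes of the mouse genome build mm10 whose symbols begin with Slc22a, Slco and a digit, Slc6a, Slc1a or Slc17a. The rule found 76 genes among 21221 protein-coding genes with a replication timing score, and all 76 had one: 25 Slc22a, 14 Slco, 21 Slc6a, 7 Slc1a and 9 Slc17a genes. Slco6b1 and Slc6a19os, annotated as long noncoding RNAs, and the pseudogene Slc22a13b match the name pattern but were not counted.

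The score came from mouse 46C embryonic stem cells of strain 129P2/Ola, cultured with leukemia inhibitory factor. Both libraries came from these cells, which had taken up 50 µM bromodeoxyuridine, a thymidine analogue built into newly made DNA, for 2 h. One library was made from cells sorted in early S phase and the other from cells in late S phase, each by antibody pull-down of labelled DNA and Ion Torrent sequencing. The authors joined them into 1 score per genomic position, smoothed over 300 kb, and the values have no replicate. Scores above 0 were read as early and scores below 0 as late, which rests on the order of the words early and late in the title of the deposited table. The log base and the zero point of the score are unknown, so scores are compared by their difference and not as folds. The read depth is unknown. The table measures DNA and holds no RNA, so neither expression of the carriers nor the identity of the cells could be checked in it.

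The 5 families move small charged or polar molecules through membranes. Slc22a proteins carry organic cations, organic anions, carnitine and urate, chiefly in kidney, liver and gut, and Slco proteins take up bile acids, thyroid hormones, prostaglandins and many drugs. Slc6a proteins use the sodium gradient to recover transmitters such as GABA, glycine, dopamine, noradrenaline and serotonin, or to absorb amino acids, and Slc1a proteins recover glutamate or exchange neutral amino acids. Slc17a proteins load glutamate or nucleotides into vesicles, export sialic acid from lysosomes, or carry phosphate and urate. Most are known for differentiated organs and not for stem cells. Genes that replicate early in S phase tend to lie in open, gene-rich chromatin.

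As a group the carriers were divided between early and late. Of the 76 genes 47 had a score above 0 and 29 below (61.8% above, against 73.5% of all protein-coding genes). Their median score was 0.44 (quartiles -0.60 and 1.19), against 1.33 for 313 other genes with Slc symbols and 1.02 for all protein-coding genes. Among the other Slc genes 261, or 83.4%, lay above 0. Scores above 1 were found for 28 carriers (36.8%, against 50.5% of all protein-coding genes). Scores below -1 were found for 8 (10.5%, against 9.59%), a share near that of all genes. With 1 library per fraction none of these differences could be tested, and genes that are neighbours share part of their smoothed value. The carriers fell into 47 separate places in the genome, counting as 1 place all members with at most 500 kb between them. With 1 mean score per place, 32 of 47 lay above 0 and the median was 0.79. The distance below all protein-coding genes was thus smaller when clusters counted once, though the other genes were not grouped in this way.

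**Figure D1:**
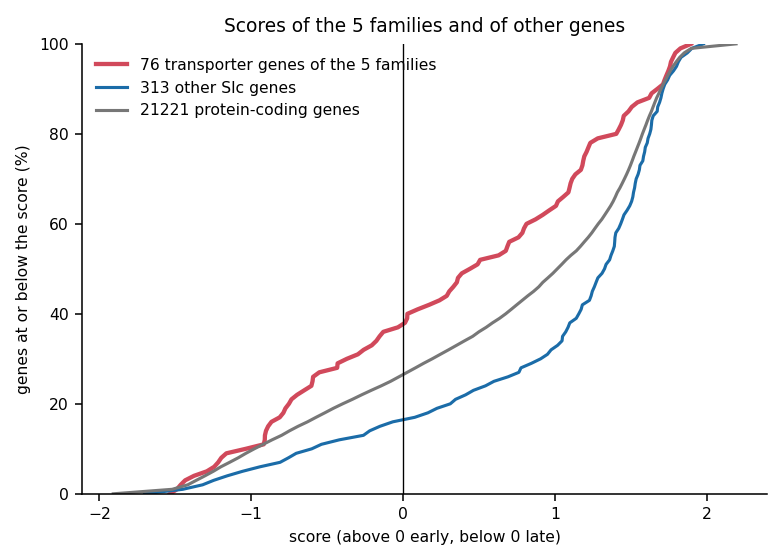
Cumulative share of genes (vertical axis, percent) at or below each replication timing score (horizontal axis) for the 76 carriers, 313 other Slc genes and 21221 protein-coding genes. The curve of the carriers lies highest over most of the range, with a median of 0.44 against 1.33 and 1.02.

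The families differed in where their members lay. Slc6a had 16 of 21 genes above 0 (76.2%, median 0.67, from -0.91 to 1.74) and Slc22a 17 of 25 (68%, median 0.70, from -1.47 to 1.90). Of the Slc1a genes 5 of 7 lay above 0 (71.4%), with a median of 1.03, and none was lower than -0.92. The shares of Slc6a, Slc22a and Slc1a were thus near the 73.5% of all protein-coding genes. Slc17a had 4 of 9 above 0 (44.4%, median -0.31, from -1.22 to 1.78) and Slco 5 of 14 (35.7%, median -0.73, from -1.54 to 1.24). The medians of Slco and Slc17a depended on clustered genes: with 1 value per place they turned to 0.075 over 8 places and 0.98 over 6 places. Every family held both early and late genes.

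**Figure D2:**
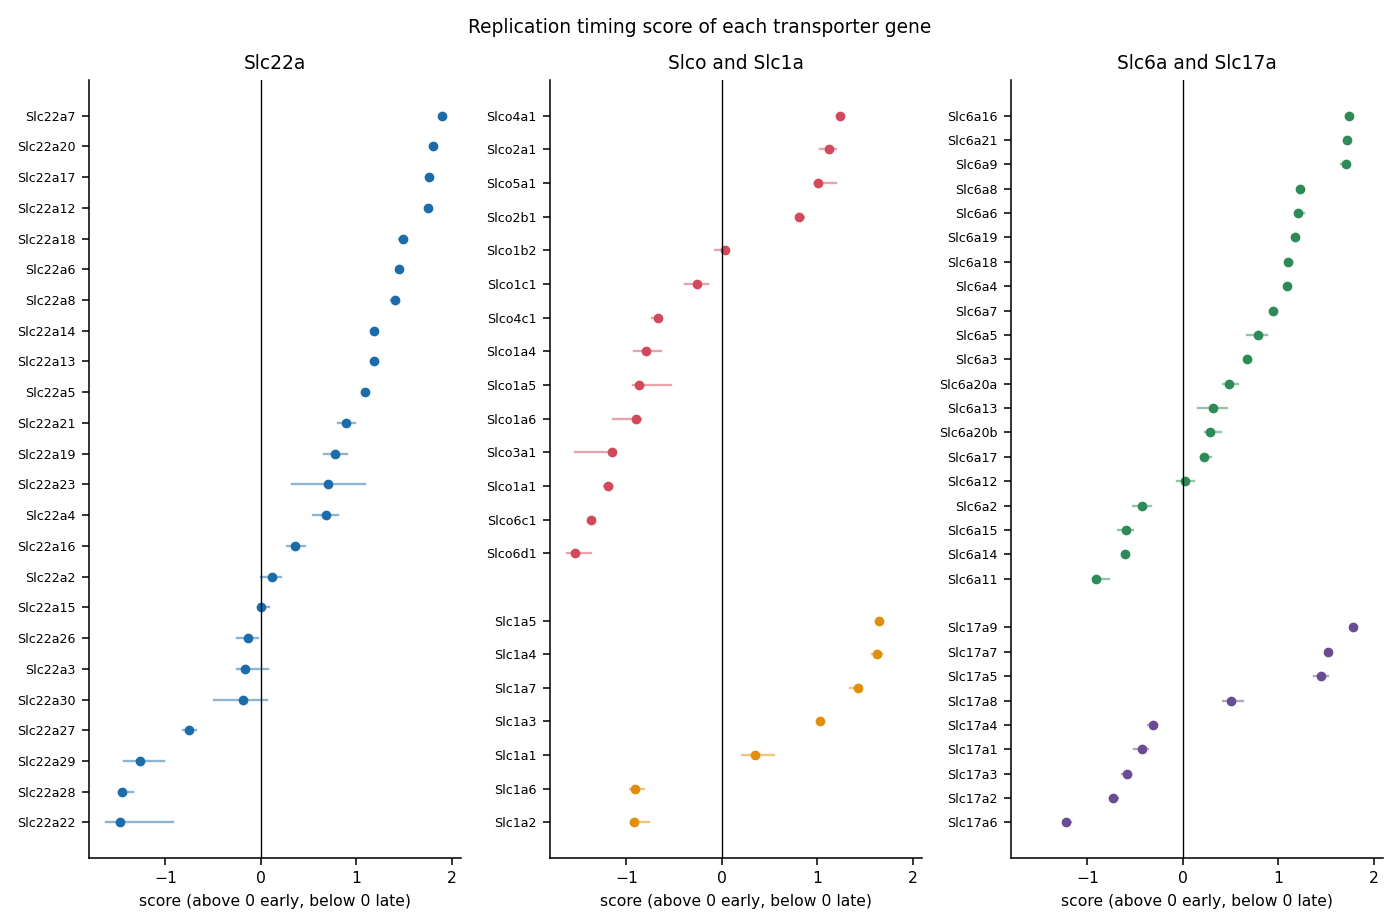
Score of each gene shown at its midpoint (points) and the span of its scores at the midpoint and both gene ends (lines), with genes ordered by score within each family and colours marking families. Slc22a runs from Slc22a7 at 1.90 to Slc22a22 at -1.47, and 9 of the 14 Slco genes lie left of 0.

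The highest Slc22a scores lay outside the main cluster of that family. Slc22a7, which encodes the organic anion carrier OAT2, had 1.90 (chromosome 17, 46432185 to 46438477), the highest of all 76. Slc22a20, which encodes OAT6 of the olfactory mucosa, had 1.80, and Slc22a12, which encodes the kidney urate exchanger URAT1, had 1.76. Both lie on chromosome 19, in the early domain that leads up to the organic anion cluster described next. Slc22a17, the gene of a receptor for lipocalin 2, had 1.77, and Slc22a18, in the imprinted region of distal chromosome 7, had 1.496. Slc22a14 and Slc22a13, neighbours on chromosome 9, both had 1.19. The first is known as a riboflavin carrier of sperm and the other carries urate and nicotinate. The lowest Slc22a gene, Slc22a22, encodes a prostaglandin-specific anion carrier. It had -1.47 at its midpoint (chromosome 15, 57243767 to 57477625) and -0.92 at its higher-coordinate end.

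The organic anion cluster of chromosome 19 crossed from early to late and back within 1 group of related genes. It holds 8 members between 7673075 and 8628299, a length of 955 kb. In order of coordinate, Slc22a19, which encodes OAT5 of the kidney, had 0.78 and Slc22a26 had -0.13. Slc22a27 had -0.75, Slc22a28 -1.45, Slc22a29 -1.26 and Slc22a30 -0.19. Slc22a8 and Slc22a6, which encode OAT3 and OAT1, the main organic anion carriers of the kidney tubule, had 1.41 and 1.45. The scores thus formed a trough whose floor lay in the rodent genes of the middle, while the genes at both edges were early.

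Slc22a28 and Slc22a6, both in this cluster, differed by 2.91 over a stretch shorter than 1 Mb. The lowest point of the cluster was -1.47, at position 8121058, and its highest was 1.47, at 8627112. The sign changed between 7764754 and 7781938 on the lower-coordinate side and between 8397413 and 8408544 on the other, which leaves a late run of 0.615 Mb. Between Slc22a30 and Slc22a8, whose midpoints are 231 kb apart, the score differed by 1.59. The protein-coding genes beside the cluster were early: Plaat5, a phospholipase and acyltransferase gene, had 1.21 and Chrm1, a muscarinic acetylcholine receptor gene, had 1.62. Positions were sparser here than elsewhere. The cluster had 9.95 positions per 100 kb, against 17.3 at the median spacing of the genome, and its largest gap was 34.5 kb. The position nearest to the midpoint of Slc22a27 lay 16.0 kb away. What part the sparse coverage had in the trough was not tested.

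**Figure D3:**
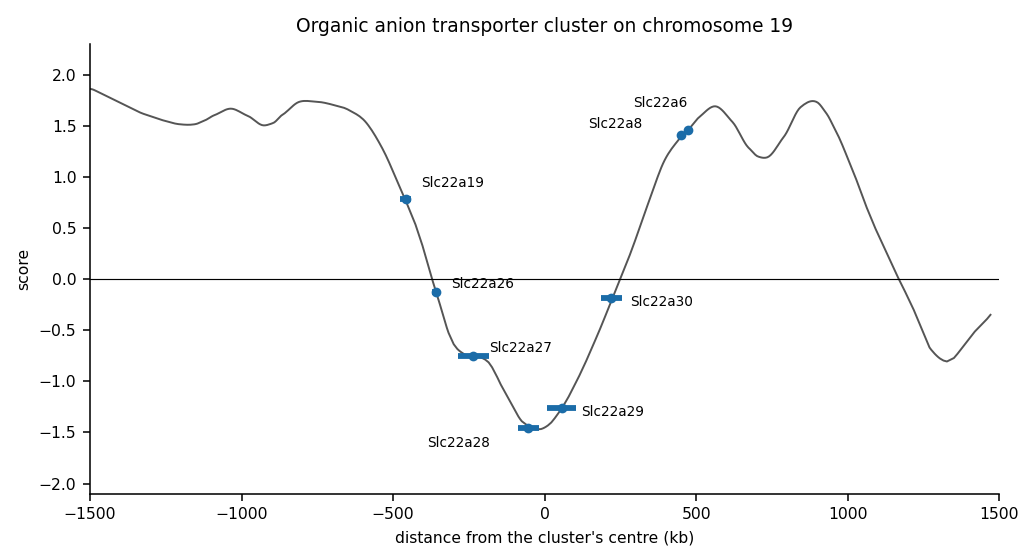
Score (vertical axis) against distance from the centre of the chromosome 19 organic anion cluster (horizontal axis, kb). Points mark gene midpoints and thick bars gene extents. The grey line is the deposited profile, which is lowest at -1.47 inside Slc22a28 and stands at 1.41 and 1.45 at Slc22a8 and Slc22a6.

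The upstream sequences of 3 genes of the cluster are given because they come from the late floor and from the early edge. They are the 250 bases before an annotated start site, from RefSeq on build GRCm38.p6, which shares its chromosome coordinates with mm10. Capitals mark each CG (CpG), the dinucleotide at which mammalian DNA is methylated.
Slc22a6: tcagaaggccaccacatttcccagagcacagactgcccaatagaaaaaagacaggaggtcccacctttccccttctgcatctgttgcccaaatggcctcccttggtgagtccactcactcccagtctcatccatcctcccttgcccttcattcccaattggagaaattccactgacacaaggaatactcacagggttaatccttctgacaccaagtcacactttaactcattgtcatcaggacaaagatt
Slc22a28: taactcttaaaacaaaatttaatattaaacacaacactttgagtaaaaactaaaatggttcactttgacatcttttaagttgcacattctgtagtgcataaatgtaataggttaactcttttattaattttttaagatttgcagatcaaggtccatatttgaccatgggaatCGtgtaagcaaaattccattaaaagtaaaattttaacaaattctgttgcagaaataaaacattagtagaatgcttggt
Slc22a29: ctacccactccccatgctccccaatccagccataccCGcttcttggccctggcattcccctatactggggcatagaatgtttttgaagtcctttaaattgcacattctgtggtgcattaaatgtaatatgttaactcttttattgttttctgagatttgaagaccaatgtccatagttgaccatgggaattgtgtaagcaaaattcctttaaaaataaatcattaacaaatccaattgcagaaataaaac
The first is chr19:8617746-8617995 on the plus strand, the next chr19:8131983-8132232 and the last chr19:8218901-8219150, both on the minus strand. The listed start site of Slc22a29 lies 34.5 kb inside the outer end of its gene. The windows of Slc22a28 and Slc22a29, neighbours with scores of -1.45 and -1.26, were identical at 169 of 227 aligned bases (74.4%). Slc22a6 matched them at 57.9% and 58.6% of aligned bases. The windows held 0 CpG in Slc22a6 and 1 each in Slc22a28 and Slc22a29, and 48.4%, 26.8% and 38.0% of their bases were G or C. The early edge and the late floor were thus alike in having almost no CpG.

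The organic cation carriers lay close to 0. Slc22a3 and Slc22a2 encode OCT3 and OCT2, which take up cationic drugs and monoamines, OCT3 in many tissues and OCT2 in the kidney. Slc22a3 had -0.16 (chromosome 17, 12419972 to 12507704) and Slc22a2 had 0.12 (12584189 to 12628489). The sign of Slc22a3 depended on where the gene was read, with 0.072 at its lower-coordinate end and -0.25 at the other. It lay in a late run of only 0.144 Mb, shorter than the smoothing width. Beside the cluster, the plasminogen gene Plg had 0.24 and the imprinted receptor gene Igf2r had 0.93. The score does not tell parental copies apart.

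The carnitine group was early in all 4 genes, against 73.5% of all protein-coding genes. Of the 4 genes 3 lie together within 165 kb, less than the smoothing width. Slc22a5, which encodes the carnitine carrier OCTN2, had 1.10. Slc22a21, encoding OCTN3, had 0.89 and Slc22a4, encoding the ergothioneine carrier OCTN1, had 0.68 (chromosome 11, 53864542 to 54030040). The score declined along the cluster in the order of coordinates, and the flanking genes Irf1 and Pdlim4 had 1.30 and 0.37. Slc22a16, the carnitine carrier gene CT2 of testis, had 0.36 on chromosome 10. Slc22a15 stood at the zero line with -0.0013 at its midpoint and 0.061 and 0.088 at its ends, and Slc22a23, another member of less studied function, had 0.70.

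Counted by gene, 9 of the 14 Slco genes lay below 0, against 26.5% of all protein-coding genes. Counted by place, 4 of 8 lay above 0. The Slco1 cluster of chromosome 6 (141524354 to 142322981) holds 6 of the 14 genes. In order of coordinate, Slco1c1, the thyroid hormone carrier of the blood-brain barrier, had -0.26. Slco1b2, the bile acid and bilirubin carrier of liver cells, had 0.029, the only member of the cluster above 0. Slco1a4 had -0.79, Slco1a1 -1.20, Slco1a6 -0.90 and Slco1a5 -0.87, all genes of carriers of bile acids and steroid conjugates or their close relatives. Slco1b2 sat on a short peak of 0.069 Mb above 0, and at its higher-coordinate end the score was -0.074. The lowest point of the cluster was -1.31, at position 142010994, within the gene Gm6614, which had -1.29. The hormone gene Iapp, inside the span of the cluster, had -0.72. The cluster had 14.3 positions per 100 kb, and its largest gap was 23.4 kb.

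Other Slco genes lay at both extremes of the family. On chromosome 1, Slco4c1, a carrier gene of the kidney, had -0.67, and Slco6c1 and Slco6d1, relatives known from testis, had -1.38 and -1.54. All 3 lay in the same late run of 11.6 Mb, and Slco6d1 (98421087 to 98516985) had no other protein-coding gene within 500 kb. Slco3a1 on chromosome 7 had -1.15 at its midpoint and -1.53 and -1.54 at its ends. In contrast Slco4a1, a thyroid hormone carrier gene, had 1.24, Slco2a1, the prostaglandin carrier gene, 1.12, Slco5a1 1.01 and Slco2b1 0.81. Slco4a1 lies in a cluster on chromosome 2 with Slc17a9, which encodes the vesicular nucleotide carrier, and Slc17a9 had 1.78.

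The monoamine carriers were split. Slc6a4, which encodes the serotonin transporter, had 1.09 (chromosome 11, 76998597 to 77032343). Slc6a3, encoding the dopamine transporter, had 0.67 (chromosome 13, 73536128 to 73578672). Slc6a2, encoding the noradrenaline transporter, had -0.43 (chromosome 8, 92960470 to 93001667) and lay in a late run of 1.05 Mb. In the same cluster as Slc6a3 lie Slc6a18 and Slc6a19, genes of neutral amino acid carriers of kidney and gut, with 1.11 and 1.17. The sign of the score was the same along all 3.

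The GABA carriers and their relatives formed separate early, boundary and late places. Slc6a11, which encodes GAT3, a GABA transporter of astrocytes, had -0.91 (chromosome 6, 114131241 to 114249886). It lay in a late run of 0.569 Mb. Slc6a13 and Slc6a12, the genes of GAT2 and of the betaine carrier BGT1, lie on the same chromosome (121300288 to 121365773) and had 0.31 and 0.027. This pair sat on a steep border. At 250 kb to either side of Slc6a12 the scores were 1.37 and -1.15. Slc6a6, the taurine carrier gene, had 1.21 and Slc6a8, the creatine carrier gene on chromosome X, had 1.23.

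The glycine carrier genes were both early. Slc6a9, encoding GLYT1 of glia, had 1.71 and Slc6a5, encoding GLYT2 of inhibitory neurons, had 0.79. The brain proline carrier gene Slc6a7 had 0.95. Slc6a14, a broad amino acid carrier gene on chromosome X, had -0.60. Among the remaining Slc6a genes, Slc6a16 and Slc6a21 on chromosome 7 had 1.74 and 1.72. Slc6a20a, which encodes a carrier of proline and related imino acids, and its copy Slc6a20b had 0.49 and 0.29. The synaptic vesicle amino acid carrier gene Slc6a17 had 0.22, and Slc6a15, which encodes a neutral amino acid carrier of neurons, was late at -0.59, on a small rise between flanks of -1.29 and -1.35 at 250 kb.

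Glutamate carriers of the cell surface also differed among themselves. Slc1a2, encoding GLT-1, the main glutamate transporter of astrocytes, had -0.92 (chromosome 2, 102658239 to 102790784). Slc1a3, encoding GLAST, which astrocytes and radial glia also express, had 1.03 (chromosome 15, 8634124 to 8710807). Slc1a6, the EAAT4 gene of Purkinje cells, had -0.91, Slc1a1, the EAAC1 gene of neurons, 0.35 and Slc1a7, the EAAT5 gene of retina, 1.43. The neutral amino acid exchangers were the highest of the family: Slc1a4, encoding ASCT1, had 1.62, and Slc1a5, encoding the glutamine carrier ASCT2 of proliferating cells, had 1.64.

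The vesicular glutamate carriers spanned nearly the whole range. Slc17a7, encoding VGLUT1, had 1.52 (chromosome 7, 45163921 to 45176139). Slc17a8, encoding VGLUT3, had 0.51 (chromosome 10, 89574020 to 89621249). Slc17a6, encoding VGLUT2, had -1.22 (chromosome 7, 51621830 to 51671126). Slc17a7 had 64 other protein-coding genes within 500 kb and Slc17a6 had 5. Slc17a5, the gene of the lysosomal sialic acid exporter sialin, had 1.45. The 4 phosphate and urate carrier genes on chromosome 13 (23806941 to 23915009) were late. In order of coordinate, Slc17a2 had -0.73, Slc17a3 -0.59, Slc17a1 -0.43 and Slc17a4 -0.31. They lay in a late run of 0.334 Mb, little wider than the smoothing, although they had 41 to 42 other protein-coding genes within 500 kb. Beside them the histone gene H2bc1 had -0.13 and Trim38 had -0.80.

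Members in clusters of 3 or more had a lower median score than members that lie alone. Of 30 genes in the 7 clusters of 3 or more, 15 lay above 0 (50%, median -0.050), against 73.5% of all protein-coding genes. Of 12 genes in 6 pairs, 8 lay above 0 (66.7%, median 0.30), and of 34 single genes 24 (70.6%, median 0.88), shares near that of all genes. Of the 30 genes in clusters of 3 or more, 8 lie in the chromosome 19 cluster and 6 in the Slco1 cluster. The medians of these clusters ran from -0.83 for Slco1 to 1.72 for the Slc17a7 cluster. They gave only 7 places, so the difference was not tested. Neighbours closer than the smoothing width are not separate measurements, but their scores could still differ. Slc22a14 and Slc22a13, with midpoints 21.1 kb apart, differed by 0.0039, and Slco1a6 and Slco1a5, 143 kb apart, by 0.030. Slc6a12 was 0.28 lower than Slc6a13 at a distance of 35.2 kb. Over the 500 kb around the midpoint, the score changed by at least 1 at 27 of 76 genes (35.5%, against 26.3% of all protein-coding genes) and by at least 2 at 6 (7.89%, against 4.85%). The 6 genes were Slc22a19, Slc22a26, Slc22a27, Slc22a30, Slc6a13 and Slc6a12, from only 2 places. Gene ends lay on opposite sides of 0 for 4 genes (5.26%, against 2.97%), namely Slc22a3, Slc22a30, Slc6a12 and Slco1b2. Within 0.25 of 0 lay 8 genes (10.5%, against 8.75%), a share near that of all genes.

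Early and late carriers differed in their surroundings and lengths. The 47 genes above 0 had a median of 16 other protein-coding genes within 500 kb and a median length of 32.6 kb, and the 29 below 0 had 7 genes and 55.9 kb. Both are given as a description, since neighbouring genes share their surroundings. The same medians were not taken for all early and late protein-coding genes. Whether the contrast is particular to the carriers was thus not tested.

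Promoters of the carriers held few CpG dinucleotides. RefSeq start sites were matched for 61 of 76 members, and CpG was counted in the 250 bases before the outermost one listed. At least 10 CpG were found in 18 of 61 members (29.5%, against 51.6% of 17028 windows of all scored protein-coding genes). The median was 5 in the carriers and 10 in all. By family, 7 of 14 Slc6a and 3 of 6 Slc1a windows reached 10, shares near that of all genes. The smaller shares were those of Slc22a (4 of 22), Slco (3 of 12) and Slc17a (1 of 7). Among carriers above 0, 14 of 37 reached 10 (37.8%, against 60.9% of all genes above 0). Among those below 0, 4 of 24 did (16.7%, against 26.3% of all genes below 0), Slc22a15 at -0.0013 among them. So on both sides of 0 the share in the carriers was the smaller. The median CpG number was 6 against 13 above 0, and 2.5 against 3 below 0. In clusters of 3 or more members, 4 of 26 windows reached 10, namely those of Slc22a5, Slc22a4, Slc6a3 and Slc6a16, and among single members 10 of 25. No test was made of these shares, since clustered genes are not independent.

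The windows of Slc22a5 and Slc1a6 are given to show that a CpG-rich start site was found on either side of 0. Capitals mark each CG.
Slc22a5: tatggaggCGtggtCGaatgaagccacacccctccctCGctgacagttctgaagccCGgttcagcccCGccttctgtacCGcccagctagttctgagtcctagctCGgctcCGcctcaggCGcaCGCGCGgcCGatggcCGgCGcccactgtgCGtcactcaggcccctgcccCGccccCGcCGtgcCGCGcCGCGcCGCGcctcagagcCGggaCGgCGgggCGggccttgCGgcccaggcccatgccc
Slc1a6: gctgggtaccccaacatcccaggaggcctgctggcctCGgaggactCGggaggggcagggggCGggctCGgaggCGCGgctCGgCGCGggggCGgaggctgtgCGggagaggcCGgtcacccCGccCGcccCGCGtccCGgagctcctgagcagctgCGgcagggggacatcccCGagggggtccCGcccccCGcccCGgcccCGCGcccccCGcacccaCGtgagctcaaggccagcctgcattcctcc
The first is chr11:53891704-53891953 on the minus strand, with 30 CpG and a score of 1.10 for the gene. The other is chr10:78780246-78780495 on the plus strand, with 26 CpG and a gene score of -0.91. The other CpG-rich members below 0 were Slc6a11 with 25, Slc22a15 with 24 and Slco4c1 with 19. Of these, Slc22a15 stood at the zero line, with -0.0013 at its midpoint and scores above 0 at its ends. Conversely, Slc22a6, Slc22a13 and Slc22a18 had scores above 1 and no CpG in the window. A window of 250 bases is far shorter than the smoothing of the score, so the 2 measures do not describe the same stretch of DNA.

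**Figure D4:**
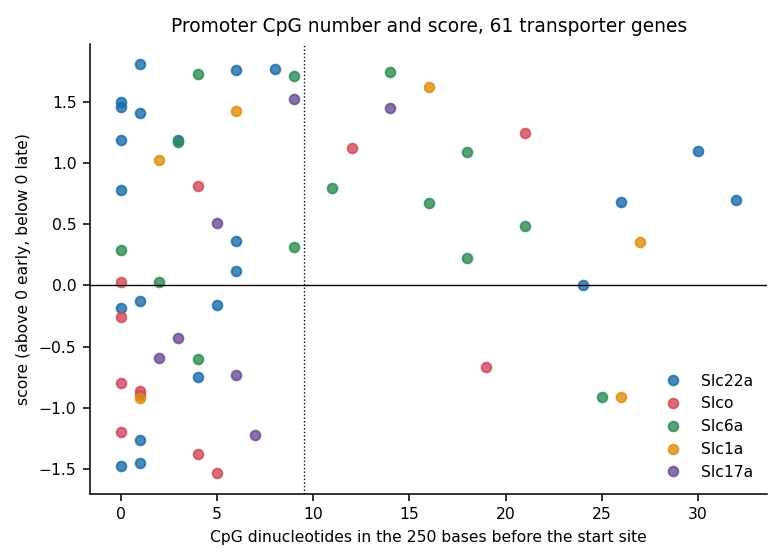
Score at the gene midpoint (vertical axis) against the number of CpG dinucleotides in the 250 bases before the start site (horizontal axis) for 61 members, coloured by family. The dotted line separates windows with fewer than 10 CpG. CpG-rich windows occur on both sides of 0, at 14 genes above it and 4 below, including Slc22a15 at -0.0013.

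Genes that work with these carriers lay mostly above 0, as do most protein-coding genes, and none of the counts was tested. Of 22 genes for making, storing and breaking down transmitters 16 lay above 0 (72.7%, median 1.10, against 73.5% and 1.02 for all protein-coding genes), a share near that of all genes. Of the 12 synthesis genes 10 lay above 0 (83.3%, against 73.5% of all protein-coding genes). So did 3 of 4 vesicle storage genes (75%) and 3 of 6 genes of breakdown and other uptake (50%). Gad1, the gene of a GABA-making enzyme, had 1.08, Th, of dopamine synthesis, 0.69, Ddc 1.12, Tph2, of serotonin synthesis in brain, 0.86 and Dbh, of noradrenaline synthesis, 0.88. Gad2, which encodes another GABA-making enzyme, had -0.86, and Glul, the glutamine synthetase gene, named here after its value was seen, had -0.39. Slc32a1, the vesicular GABA carrier gene, had 1.16 and Slc18a2, the vesicular monoamine carrier gene, -0.15. Pnmt, of adrenaline synthesis, was the highest at 1.86. The lowest were Slc5a7, the choline uptake gene, at -1.33 and Maob, of monoamine breakdown, at -0.93.

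Of 23 partner genes of organic ion handling in kidney and liver 22 lay above 0 (95.7%, median 1.24, against 73.5% and 1.02 for all protein-coding genes). The liver regulator Hnf4a had 1.28. The cation efflux gene Slc47a1 had 1.40, and the drug efflux genes Abcb1a and Abcg2 had 0.73 and 0.24. Nr1i3, a drug-sensing nuclear receptor gene, was the highest at 1.83. The lowest were Slc10a2, the bile acid uptake gene of the ileum, at -1.25, the only gene of this list below 0, and Cltrn, whose product helps Slc6a19 reach the cell surface, at 0.090.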

How the data were processed

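Per the submitters' processing notes, reads were aligned with Bowtie2 to mm10 by the authors. The deposited score joins the early and late libraries (1 each) and is smoothed over 300 kb, per the name of the deposited table; read counting, scaling between libraries, log base and zero point are not stated in the sources used here. The table held 384798 positions, 4 without a value, and no unused columns of per-sample values (0).

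Gene places came from a RefSeq table of GRCm38.p6, after 348 rows of scaffolds were left out. Each gene was given the score at the table position closest to the gene midpoint, if at most 100 kb away; for the members the median distance was 1.70 kb. Of 21770 protein-coding genes 21221 had a score. Members at most 500 kb apart formed a cluster. Runs were stretches of 1 sign, ended by gaps over 300 kb. Upstream sequences came from RefSeq. For genes with several listed start sites, the one nearest the outer 5' end of the gene was used. This choice and the CpG minimum of 10 were set after scores were seen.

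Without replicates nothing was tested. Any member may be named. Of the partner genes, those marked in advance and the 2 highest and lowest are named, as is Glul, picked after its value was seen. The members and lists were chosen with earlier results of these data known. Of genes beside or inside clusters, some are not named. A few members and partner genes enter the counts and medians but are not reported here by name. A planned comparison of protein identity was not made, since protein sequences were not used here. The lookup, run and cluster steps were tested on simulated data (Python 3.11.15, NumPy 2.4.6, pandas 2.3.3). Alternatives were other points of the gene, means over the gene or within 150 kb, a zero point at the autosomal median (-0.30), a nearest position within 10 kb, clusters as 1 unit, autosomes only, a band of 0.25 around 0 left out, other cluster gaps and means in place of medians. A group median was called unmoved when it stayed inside the 95% order-statistic interval over its members, or inside their range for small groups.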

Additional observations from a re-analysis of the deposited data

How the results depend on the processing

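The true zero point is not known. With it at the autosomal median every score is 0.30 higher by construction. Signs then turned for Slc22a3 (0.14), Slc22a26 (0.17), Slc22a30 (0.12), Slc22a15 (0.30) and Slco1c1 (0.045), and 2 Slco1 genes lay above 0 in place of 1. The same shift moved the medians to 0.42 for the organic cation genes, -0.21 for the phosphate and urate genes, 1.198 for the Slc22a5 cluster, 1.41 for the Slc6a3 cluster and 2.03 for the Slc17a7 cluster. For the chromosome 19 cluster the median turned to 0.15, and to 0.038 with means within 150 kb of the midpoint, which is a value near 0 over genes on both sides of it.

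Where a gene was read changed few signs. At the lower-coordinate end Slc22a3 had 0.072 and Slc22a15 0.061. At the higher-coordinate end Slc22a30 had 0.061, Slc22a15 0.088, Slc6a12 -0.061 and Slco1b2 -0.074, so that 0 Slco1 genes lay above 0. With means within 150 kb Slc22a3 had 0.061, Slc22a26 0.12, Slc22a15 0.29 and Slco1b2 -0.20 (again 0 Slco1 genes above 0), and over the gene Slc22a15 had 0.029. In all, 69 of 76 members kept their sign under every alternative run on single genes. With clusters as 1 unit the medians were 0.075 for Slco and 0.98 for Slc17a, and 10 Slc22a places lay above 0; these counts have fewer units by construction. Of 378 group medians and counts 348 were labelled unmoved, counts being allowed to differ by up to 1.5 times. Of the 30 that moved or turned, 15 belong to classes or clusters of 2 genes, whose range is narrow. This tally does not measure robustness. Autosomes only and the strict distance left out few genes, so most groups could not change under them. The median of all members was labelled unmoved although it went from 0.44 to 0.79 with clusters as 1 unit. With 1 value per gene, the difference of the members from all protein-coding genes ran from -0.59 to -0.32. From other Slc genes it ran from -0.89 to -0.61, with means giving the smaller sizes. These ranges leave out clusters as 1 unit, where the distance was smaller still. The median of the members was then 0.79, against 1.02 for all protein-coding genes, which were not grouped. The strict distance left out only Slc22a27, and autosomes only left out the 2 members on chromosome X, both Slc6a genes.

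No paired analysis was possible because there is 1 library per fraction and the table gives 1 value for both. Depth is unknown, and sparse positions limit the chromosome 19 cluster most.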
